A study of Homo sapiens with 12 samples.

Results

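The transcripts of 10 plasma membrane amino acid transporter genes were followed in LNCaP prostate cancer cells in which FOXA1 or TRIM28 had been knocked down: SLC43A1, SLC43A2, SLC7A5, SLC7A8, SLC7A11, SLC3A2, SLC1A4, SLC1A5, SLC38A1 and SLC38A2. They were chosen by symbol, with earlier results of these data known, and all 10 were found among the 60835 symbols measured. The cells are LNCaP in the extraction protocol, an androgen-sensitive human prostate cancer line, and the cell line label spells the name LACAP. Poly(A) RNA sequencing gave 12 libraries in 4 groups of 3: FOXA1 knockdown, the control of that arm, TRIM28 knockdown, and the control of that second arm. The treatment labels give an shRNA against FOXA1 or TRIM28 for the knockdowns and a control shRNA for the controls. The other labels differ: knockdown libraries are titled SH control and headed SI in the tables, and controls are NC in both, so whether the reagent was an shRNA or an siRNA is not settled by them. FOXA1 is a pioneer transcription factor of the luminal prostate lineage, and TRIM28 silences chromatin at sites that KRAB zinc finger proteins bring it to. Neither the reagents' sequences, nor their number per gene, nor the time after delivery is stated in the labels, and every library carries batch label 1, so no batch could be compared. Library totals lay between 12256092 and 15152890 counts.

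Cells take up amino acids they cannot make, and exchange those they can, through carriers that differ in substrate and in driving force. System L carriers move large neutral amino acids such as leucine without sodium. Of these, SLC43A1 (LAT3) and SLC43A2 (LAT4) are uniporters that work alone, while SLC7A5 (LAT1) and SLC7A8 (LAT2) are exchangers that reach the membrane bound to the heavy chain SLC3A2 (CD98). SLC7A11 (xCT) shares that heavy chain and exchanges glutamate for cystine, which feeds glutathione synthesis. SLC1A4 (ASCT1) and SLC1A5 (ASCT2) are sodium-dependent exchangers of small neutral amino acids, and SLC1A5 also carries glutamine, while SLC38A1 (SNAT1) and SLC38A2 (SNAT2) bring neutral amino acids in with sodium. SLC43A1 is known in prostate cancer for its high and androgen-responsive expression, and several of the others are known targets of ATF4, the transcription factor of the amino acid response.

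The start regions of SLC43A1 and SLC43A2 are shown because these uniporter genes moved in opposite directions in both knockdowns. Windows of 300 bases, 250 before and 50 after an annotated start, came from RefSeq (GRCh38.p14), which held 21 windows for 9 of the genes. SLC7A11 was not among them. On chromosome 11, SLC43A1 has windows at chr11:57515653-57515952 and chr11:57514860-57515159, and SLC43A2 on chromosome 17 has, among its 3 windows, chr17:1628785-1629084, with both genes on the minus strand. Each is printed in the gene's direction, 5′ to 3′, and the capitals mark matches to the 5 motifs searched.
SLC43A1 window 1: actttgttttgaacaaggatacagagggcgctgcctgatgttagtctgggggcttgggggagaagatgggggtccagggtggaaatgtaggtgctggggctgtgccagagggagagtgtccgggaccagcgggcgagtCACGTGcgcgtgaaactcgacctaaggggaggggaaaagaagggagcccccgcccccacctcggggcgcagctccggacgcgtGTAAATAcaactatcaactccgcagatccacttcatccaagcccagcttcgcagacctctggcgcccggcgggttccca
SLC43A1 window 2: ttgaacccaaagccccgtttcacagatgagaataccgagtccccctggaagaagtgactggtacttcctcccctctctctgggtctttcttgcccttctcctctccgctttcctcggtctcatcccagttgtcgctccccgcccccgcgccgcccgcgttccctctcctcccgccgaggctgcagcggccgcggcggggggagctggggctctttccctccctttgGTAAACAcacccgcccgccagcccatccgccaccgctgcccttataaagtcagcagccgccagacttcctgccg
SLC43A2 window 1: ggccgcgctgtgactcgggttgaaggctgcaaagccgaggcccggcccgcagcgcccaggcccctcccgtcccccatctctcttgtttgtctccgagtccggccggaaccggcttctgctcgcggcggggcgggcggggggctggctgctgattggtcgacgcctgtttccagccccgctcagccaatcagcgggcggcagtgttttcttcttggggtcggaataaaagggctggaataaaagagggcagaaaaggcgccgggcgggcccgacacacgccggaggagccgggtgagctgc
Both strands were searched for the FOXA cores TGTTTAC and TATTTAC, the element TGATGNAA bound by CEBP and ATF4 pairs, the E-box CACGTG and the antioxidant element TGACNNNGC. SLC43A1 held TATTTAC on the opposite strand from base -29 and the E-box from base -112 in window 1, and TGTTTAC on the opposite strand from base -24 in window 2, counted from the start. TGTTTAC stands in 3.42% of the 35116 windows in the RefSeq table and TATTTAC in 2.67%, while CACGTG stands in 7.26%. CACGTG also stood in a window each of SLC7A5, SLC7A8 and SLC1A5. Of these, SLC1A5 was called lower in both knockdowns, SLC7A8 lower in TRIM28 knockdown only, and SLC7A5 in neither. A part of these motifs in the changes was not tested. None of the 5 motifs was found in the 3 windows of SLC43A2. A match describes letters in a window, not a bound site.

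The element TGATGNAA, present in 3.62% of all windows, was found in 4 of the 21 windows, 1 each of SLC3A2, SLC1A4, SLC1A5 and SLC38A1. These are shown with up to 16 bases on either side, and each piece follows its gene's direction with the element in capitals. The 4 genes were lower in FOXA1 knockdown, as were SLC43A1 and SLC38A2, which had no such element in their windows. SLC7A11, also lower, had no window to search. A part of the element in these changes was not tested.
SLC3A2 at chr11:62881720-62881748 (plus strand): taatgtgcaggactccTTACATCAgctcc
SLC1A4 at chr2:64989376-64989415 (plus strand): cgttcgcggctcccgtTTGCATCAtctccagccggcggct
SLC1A5 at chr19:46784888-46784927 (minus strand): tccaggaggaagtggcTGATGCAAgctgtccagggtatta
SLC38A1 at chr12:46266497-46266536 (minus strand): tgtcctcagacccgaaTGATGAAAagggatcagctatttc
Each gene has more than 1 annotated start, and the element is counted from the start of its own window. It began at base 38 in window 3 of SLC3A2 and base -7 in window 2 of SLC1A4. In window 3 of SLC1A5 it began at base -97, and in window 2 of SLC38A1 at base -4. The other windows of these genes, window 1 of each among them, held none. SLC1A5 also held TGTTTAC in 1 window, so FOXA cores stood in windows of 2 of the 9 genes. Counted by gene, TGTTTAC stood in 4.19% and TATTTAC in 3.28% of the 27305 genes in the RefSeq table. Those genes had 35116 windows, and the 9 genes here had 21, which gives each more places for a match. The antioxidant element, found in 13.35% of all windows and in windows of 16.06% of all genes, stood in windows of SLC7A5, SLC3A2 and SLC1A5.

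The knockdowns were read first in the targeted genes. FOXA1 stood at 29.2%, 28.6% and 29.2% of the control mean in the 3 FOXA1 knockdown libraries. TRIM28 stood at 32.0%, 28.5% and 14.0% of the control mean in the 3 TRIM28 knockdown libraries. FOXA1 itself was also lower there, at 47.3%, 43.0% and 70.1% of the control mean, so FOXA1 was lower in both arms. TRIM28 in FOXA1 knockdown stood at 86.9% to 89.4% of the control mean. TRIM28 knockdown replicate 3 stood apart: a chi-square of its counts against replicates 1 and 2 gave 22.6 and 20.4 per degree of freedom, against 2.94 to 5.73 for the other pairs of replicates. The 8 stromal markers summed to 84.2 FPKM in it, with 6 of them at 1 FPKM or more, against 6.50 and 8.70 in replicates 1 and 2 and 5.82 to 8.10 in the libraries of the other groups. For the transporters, the lists and the genes named from them, values without that library therefore stand beside those of TRIM28 knockdown. All 12 luminal and LNCaP markers were at 1 FPKM or more in every library, and their sum was 919 to 945 FPKM in FOXA1 knockdown and 1304 to 1331 FPKM in its control, and 911 to 964 FPKM in TRIM28 knockdown and 1306 to 1333 FPKM in its control. The 5 basal markers summed to 4.63 to 5.78 FPKM in FOXA1 knockdown and 0.65 to 1.16 FPKM in its control, and to 0.893, 0.979 and 5.81 FPKM in TRIM28 knockdown replicates 1, 2 and 3 and 0.34 to 0.79 FPKM in its control. Leukocyte markers (7 of 8) and endothelial markers (4 of 5) stayed under 1 FPKM in every library.

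Levels per length, in FPKM (fragments per kilobase of length scaled to depth, as deposited), placed the transporters over a wide range. In both control groups the order was SLC3A2, SLC38A2, SLC43A1, SLC1A5, SLC38A1, SLC7A5, SLC7A11, SLC7A8, SLC1A4 and SLC43A2. Over the 6 control libraries the mean level ran from 153 FPKM for SLC3A2 to 3.33 FPKM for SLC43A2, and SLC1A5 and SLC38A1 were the only neighbours whose libraries overlapped. SLC43A1 had rank 3 in both control groups, at 74.7 ± 3.4 FPKM in the FOXA1 control and 80.5 ± 2.4 FPKM in the TRIM28 control (SD, n = 3 each). It had rank 6 in FOXA1 knockdown at 37.2 ± 2.0 FPKM and rank 7 in TRIM28 knockdown at 39.7 ± 2.8 FPKM (SD, n = 3 each). In the TRIM28 knockdown libraries SLC43A1 and its neighbour above, SLC7A11, overlapped. SLC43A2 had 5.58 ± 0.55 FPKM in FOXA1 knockdown and 3.18 ± 0.25 FPKM in its control, and 6.30 ± 1.77 FPKM in TRIM28 knockdown and 3.47 ± 0.22 FPKM in its control (SD, n = 3 each).

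**Figure D1:**
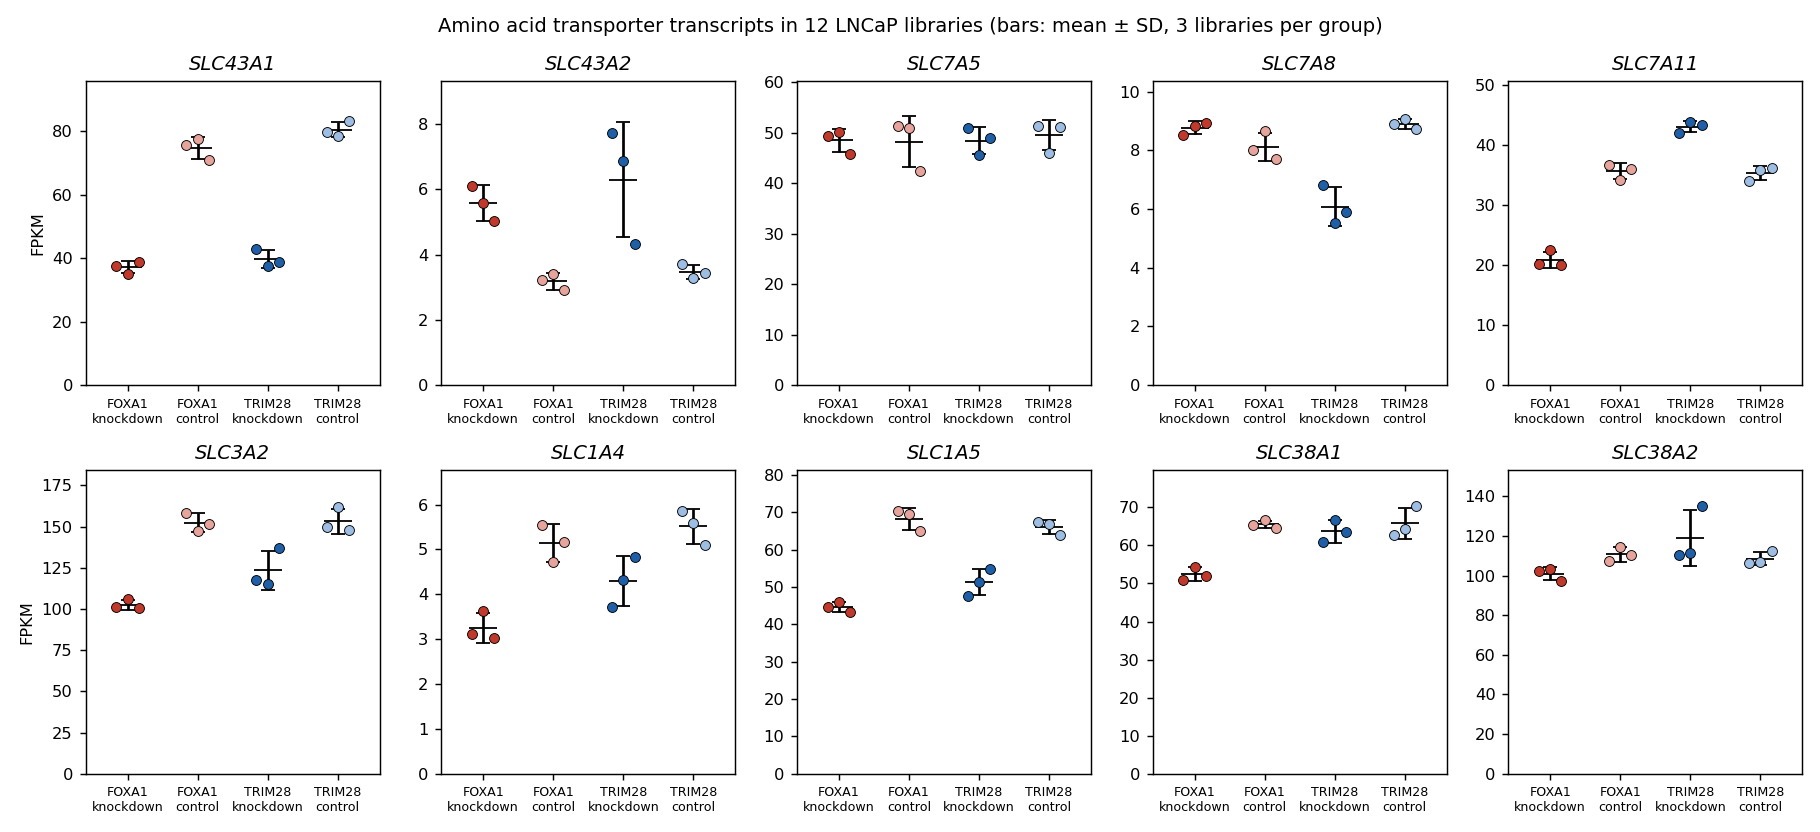
FPKM of each transporter transcript in the 12 libraries, by group (knockdown left of its control). Points are libraries, the horizontal line is the mean and the bar the SD of 3 libraries. SLC43A1 lies between 35.0 and 42.8 FPKM in the 6 knockdown libraries and between 70.9 and 83.2 FPKM in the 6 control libraries, while SLC43A2 is higher in the knockdown libraries.

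In the FOXA1 knockdown, 7 of the 10 transporters were lower and 1, SLC43A2, was higher, by edgeR's quasi-likelihood test with Benjamini-Hochberg adjustment over all genes (threshold 0.05). SLC7A5 and SLC7A8 were not called. This knockdown moved much of the transcriptome: 52.4% of the 14953 genes tested were called, 26.3% of them lower and 26.1% higher. The members' median log2 change was -0.46, against -0.02 for all genes tested. Since the members were chosen with earlier results of these data known, these values describe them and test no excess. The libraries of the groups did not overlap for 8 members, as for 58.4% of all genes tested. In bulk RNA, fewer cells of a type and less RNA per cell cannot be told apart, and the part of the luminal and basal marker levels in these changes was not tested.

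SLC43A1 had the largest fall among the 10. It measured 94.8, 87.4 and 97.6 CPM (counts scaled to depth with TMM factors) in the FOXA1 knockdown libraries and 191, 196 and 180 CPM in the controls. The knockdown libraries stood between 46.2% and 51.6% of the control mean, and the groups were far apart. The log2 change was -1.02 (SE 0.06, adjusted p = 2.01e-15), and a fall of at least 2-fold that passed the test was seen in 3.62% of all genes tested. SLC43A2 went the other way, with 49.8, 45.1 and 40.8 CPM in FOXA1 knockdown and 26.2, 28.0 and 24.0 CPM in controls, a log2 change of 0.79 (SE 0.09, adjusted p = 6.61e-09). All 3 knockdown libraries lay above all 3 controls.

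Among the heteromeric exchangers, the light chains differed. SLC7A11, the cystine carrier, measured 196, 215 and 193 CPM in FOXA1 knockdown and 357, 332 and 352 CPM in controls, a log2 change of -0.79 (SE 0.05, adjusted p = 9.36e-14). The heavy chain SLC3A2 measured 287, 299 and 285 CPM in FOXA1 knockdown and 453, 421 and 436 CPM in controls, a log2 change of -0.59 (SE 0.05, adjusted p = 7.14e-12). Neither gene's groups overlapped. SLC7A5, the main leucine exchanger of many tumours, averaged 220 ± 10 CPM in FOXA1 knockdown and 221 ± 22 CPM in controls (SD, n = 3 each), with a log2 change of -0.01 (SE 0.06, adjusted p = 0.928). SLC7A8 had a log2 change of 0.10 (SE 0.08, adjusted p = 0.314), with 36.2, 37.2 and 37.8 CPM in FOXA1 knockdown and 34.1, 36.9 and 33.0 CPM in controls.

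The sodium-dependent carriers were lower as well. SLC1A5, the glutamine exchanger, measured 129, 132 and 125 CPM in FOXA1 knockdown and 204, 202 and 189 CPM in controls (log2 change -0.63, SE 0.05, adjusted p = 1.69e-11). Its relative SLC1A4, a carrier of serine and alanine at a lower level, had 18.0, 20.9 and 17.5 CPM in FOXA1 knockdown and 32.3, 27.4 and 30.2 CPM in controls (log2 change -0.67, SE 0.10, adjusted p = 1.20e-06). Both pairs of groups were clear of each other. The system A genes moved less: SLC38A1 changed by -0.34 on the log2 scale (SE 0.04, adjusted p = 1.73e-07) and SLC38A2 by -0.15 (SE 0.04, adjusted p = 0.00696). The call of SLC38A2 was lost without FOXA1 knockdown replicate 3 (adjusted p = 0.0924), without control replicate 2 (adjusted p = 0.0551) and in a fit of all 12 libraries (adjusted p = 0.166).

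In the TRIM28 knockdown, 5 transporters were lower (SLC43A1, SLC7A8, SLC3A2, SLC1A4 and SLC1A5) and SLC43A2 was higher, against 26.7% of 14981 genes called, 13.3% in each direction. With scaling by library size alone, 2597 genes were higher and 1502 lower, in place of 1994 higher and 1999 lower. The members' median log2 change was -0.25, against 0.00 for all genes tested, and 7 members had no overlap between the groups, as had 43.9% of all genes. Without replicate 3, 7 members were called in place of 6, with SLC7A11 added as higher, and 6966 of 15475 genes tested were called. Without TRIM28 control replicate 2, 3 members were called, and 1817 of 15581 genes tested. Without control replicate 3, 3 members were called, and 2154 of 15652 genes tested.

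SLC43A1 again had the largest fall. It measured 104, 91.6 and 97.4 CPM in TRIM28 knockdown and 201, 209 and 215 CPM in controls, and no library of one group came near the other. The log2 change was -1.09 (SE 0.08, adjusted p = 0.000112), the call held when any 1 library was left out, and the value was -1.10 without replicate 3. A called fall of at least 2-fold was seen in 1.27% of all genes tested in this arm. SLC43A2 measured 60.7, 54.4 and 35.0 CPM in TRIM28 knockdown and 30.2, 28.1 and 28.7 CPM in controls. Replicate 3 was nearest to the controls, and still above them. The log2 change was 0.79 (SE 0.18, adjusted p = 0.0116), 0.98 without knockdown replicate 3 (adjusted p = 4.84e-11), and not called without control replicate 1, 2 or 3 (adjusted p = 0.0519, 0.0637 and 0.0542).

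SLC7A8 and SLC7A11, light chains of the exchangers, followed a pattern of their own in this arm. SLC7A8, the exchanger typical of polarised epithelia, measured 27.9, 22.8 and 24.9 CPM in TRIM28 knockdown and 37.8, 40.5 and 38.0 CPM in controls, with no overlap. Its log2 change was -0.62 (SE 0.11, adjusted p = 0.00351), and the call held when any 1 library was left out (-0.62 without knockdown replicate 3). SLC7A11 measured 393, 412 and 417 CPM in TRIM28 knockdown and 328, 366 and 359 CPM in controls, so that every knockdown library was above every control. Its log2 change of 0.21 (SE 0.08, adjusted p = 0.0694) missed the threshold, and was called without knockdown replicate 3 (0.19, adjusted p = 0.0143), with library size scaling (0.29, adjusted p = 0.0117), by limma on FPKM (adjusted p = 0.0205) and in a fit of all 12 libraries (adjusted p = 0.0182). FPKM are scaled to the library total too, so the limma call shares that scaling and is not a separate check of it. SLC7A5 had a log2 change of -0.10 (SE 0.08, adjusted p = 0.381), and of -0.13 without knockdown replicate 3 (adjusted p = 0.126).

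The heavy chain SLC3A2 measured 323, 319 and 388 CPM in TRIM28 knockdown and 427, 485 and 433 CPM in controls, a log2 change of -0.38 (SE 0.10, adjusted p = 0.0173). Replicate 3 again lay closest to the controls, and without it the change was -0.49 (adjusted p = 1.37e-07). The call was lost without knockdown replicate 1 (adjusted p = 0.0565) or 2 (0.0684), and without control replicate 2 (0.0861) or 3 (0.0527). SLC1A5 measured 133, 144 and 157 CPM in TRIM28 knockdown and 195, 203 and 190 CPM in controls (log2 change -0.44, SE 0.09, adjusted p = 0.00554), a call that held when any 1 library was left out (-0.51 without knockdown replicate 3). SLC1A4 measured 20.8, 24.3 and 27.9 CPM in TRIM28 knockdown and 33.9, 34.2 and 30.4 CPM in controls. Its log2 change of -0.43 (SE 0.13, adjusted p = 0.0305) was -0.55 without knockdown replicate 3 (adjusted p = 0.000109), and was not called when any 1 of the other 5 libraries was left out (adjusted p between 0.0603 and 0.112), with library size scaling (-0.36, adjusted p = 0.0564) or by limma on FPKM (adjusted p = 0.0827).

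The system A genes were not called in TRIM28 knockdown. SLC38A1 averaged 505 ± 26 CPM in TRIM28 knockdown and 548 ± 39 CPM in controls (SD, n = 3 each), a log2 change of -0.12 (SE 0.09, adjusted p = 0.323), and of -0.13 without replicate 3 (adjusted p = 0.110). SLC38A2 measured 512, 521 and 645 CPM in TRIM28 knockdown and 511, 540 and 555 CPM in controls, a log2 change of 0.06 (SE 0.10, adjusted p = 0.672). Without replicate 3, the high library, the value was -0.06. In CPM, replicate 3 was the highest of the 3 knockdown libraries for SLC3A2, SLC1A4, SLC1A5 and SLC38A2, and narrowly for SLC7A11 (417, against 412 in replicate 2). The part of the stromal, basal and FOXA1 levels of that library in these values was not tested, and the 6 calls stand without it.

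**Figure D2:**
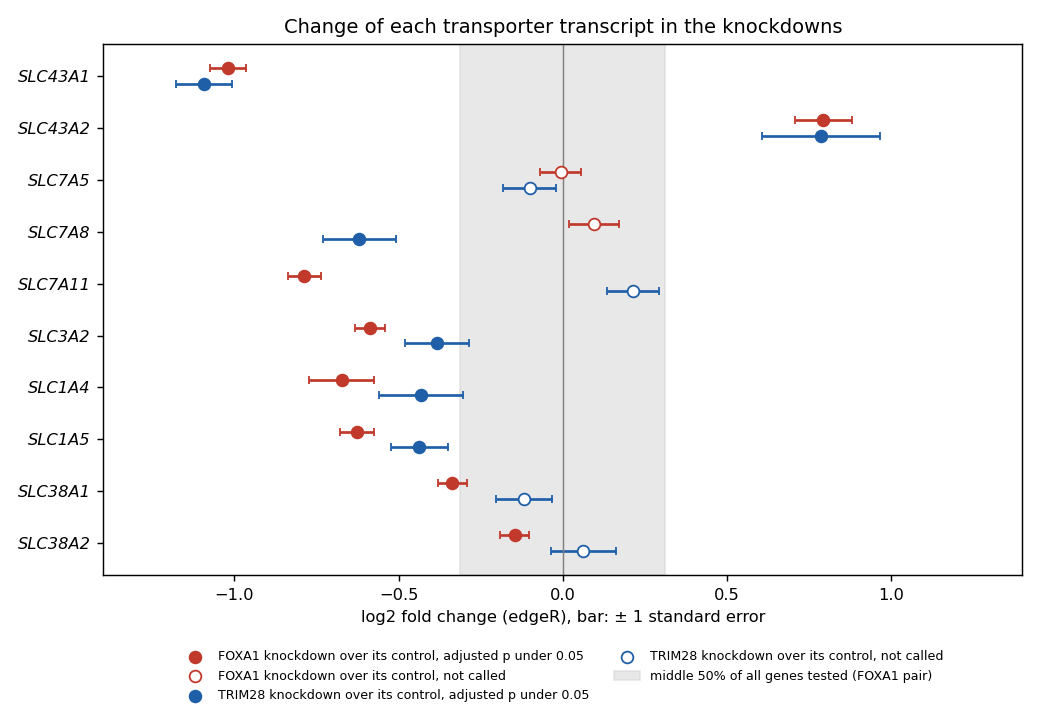
Log2 fold change of each transporter (edgeR), with 1 standard error on either side, in FOXA1 knockdown (red) and TRIM28 knockdown (blue), each over its own control. Filled points have an adjusted p under 0.05, and the grey band spans the genes tested in the FOXA1 arm from the lower to the upper quartile (-0.31 to 0.31). SLC43A1 lies near -1 and SLC43A2 near 0.79 in both arms, while SLC7A8 and SLC7A11 differ between the arms.

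The effects of the knockdowns were compared directly in a fit of all 12 libraries, as the FOXA1 effect minus the TRIM28 effect. Of the 10 transporters, 2 differed, 1 higher and 1 lower, against 10.6% of 15921 genes tested, 5.98% higher and 4.59% lower. The number of genes higher in this contrast was 952 and lower 731, and with library size scaling 751 and 1126. SLC7A11 differed by -0.99 on the log2 scale (SE 0.09, adjusted p = 2.79e-06), being lower in FOXA1 knockdown and above its controls in every TRIM28 knockdown library. SLC7A8 differed by 0.73 (SE 0.13, adjusted p = 0.00113), with the fall seen in the TRIM28 arm. Both differences were called when any 1 of the 12 libraries was left out. For SLC43A1 the difference was 0.08 (SE 0.10, adjusted p = 0.647) and for SLC43A2 0.02 (adjusted p = 0.971), which does not show that the effects are equal. The remaining 6 differences lay between -0.23 for SLC1A4 and 0.11 for SLC7A5 and were not called. With library size scaling that of SLC38A1 was called (-0.28, adjusted p = 0.0405). Between the control groups no transporter was called, 2 had no overlap between the groups (as had 9.35% of all genes tested), and their log2 differences lay between -0.12 and 0.06 (FOXA1 control over TRIM28 control). edgeR called 0 of 14839 genes there, with 635 at an unadjusted p under 0.05 (4.28%), and DESeq2 also called 0.

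Ratios of FPKM within a library show the balance between carriers without depending on scaling. SLC43A1 over SLC43A2 was 6.15, 6.27 and 7.74 in FOXA1 knockdown and 23.6, 22.7 and 24.3 in its control. In TRIM28 knockdown it was 5.54, 5.45 and 9.00, against 21.5, 24.0 and 24.3 in its control. Replicate 3 of the TRIM28 knockdown had the highest ratio of its group, and all 6 knockdown libraries lay below all controls. With 3 libraries against 3 the smallest exact two-sided permutation p is 0.1, which 10 of the 14 ratio comparisons reached (0.14 after adjustment over the 14), so none can pass 0.05.

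For the cystine carrier and its heavy chain, SLC3A2 over SLC7A11 was 4.98, 4.71 and 5.03 in FOXA1 knockdown and 4.30, 4.31 and 4.20 in its control, and 2.79, 2.63 and 3.16 in TRIM28 knockdown, against 4.41, 4.50 and 4.09 in its control. The ratio was thus above all controls in one arm and below all controls in the other. SLC7A11 over SLC7A5 averaged 0.43 ± 0.02 in FOXA1 knockdown and 0.75 ± 0.09 in its control, and was 0.828, 0.965 and 0.887 in TRIM28 knockdown, against 0.72 ± 0.06 in its control (SD, n = 3 each). SLC7A5 over SLC7A8 was 7.46, 8.22 and 8.27 in TRIM28 knockdown, against 5.56 ± 0.43 in its control (SD, n = 3), with no overlap. SLC1A5 over SLC1A4 overlapped between the groups in both arms, at 13.8 ± 1.0 in FOXA1 knockdown and 13.3 ± 1.2 in its control, and at 12.8, 11.9 and 11.3 in TRIM28 knockdown, against 12.0 ± 0.5 in its control (SD, n = 3 each).

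**Figure D3:**
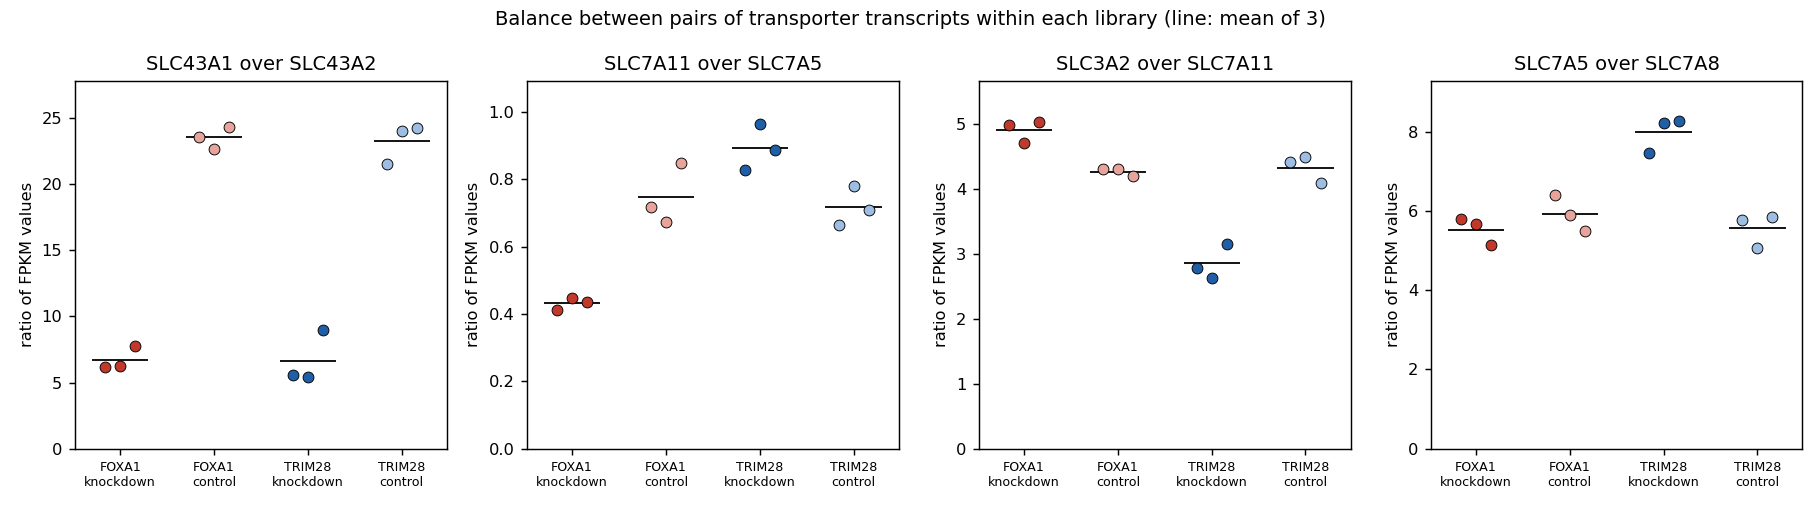
Ratios of FPKM between pairs of transporters in each library, by group (knockdown left of its control), with the mean of 3 as a line. SLC43A1 over SLC43A2 lies between 5.45 and 9.00 in the 6 knockdown libraries and between 21.5 and 24.3 in the 6 control libraries, and SLC3A2 over SLC7A11 is above its control in the FOXA1 arm and below it in the TRIM28 arm.

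Other genes of amino acid transport, sensing and use were followed in 6 lists. The lists, too, were chosen with earlier results of these data known, so their counts are descriptive. Of the ATF4 list, which holds ATF4, the kinases above it and its known targets, 20 of 27 genes tested were lower and 2 higher in FOXA1 knockdown, with a median log2 change of -0.45. In TRIM28 knockdown 10 of 27 were lower and 3 higher, with a median of -0.34. Those lower counts stand beside 26.3% and 13.3% of all genes. Without TRIM28 control replicate 2 the count lower in TRIM28 knockdown was 5, and without knockdown replicate 3 it was 13. ATF4 itself averaged 382 ± 12 CPM in FOXA1 knockdown and 658 ± 17 CPM in its control (log2 change -0.79, SE 0.04, adjusted p = 5.57e-15). In TRIM28 knockdown ATF4 averaged 440 ± 79 CPM, against 693 ± 33 CPM in its control (log2 change -0.66, SE 0.12, adjusted p = 0.00381; SD, n = 3 each), and without knockdown replicate 3 the change was -0.82. MTHFD2, a mitochondrial folate enzyme and ATF4 target, fell by 1.08 on the log2 scale in FOXA1 knockdown (adjusted p = 1.01e-16). In TRIM28 knockdown MTHFD2 had a called log2 change of -0.53, and of -0.72 without knockdown replicate 3. That call was lost without knockdown replicate 2 or any 1 control library. VLDLR, a lipoprotein receptor on the same list, rose in TRIM28 knockdown, to 80.0 ± 6.1 CPM, against 43.1 ± 2.5 CPM in its control (SD, n = 3 each). The log2 change was 0.89 (SE 0.10, adjusted p = 0.000491), and 0.83 without knockdown replicate 3. VLDLR was also higher in FOXA1 knockdown (log2 change 0.67), a call that held when any 1 library was left out. Its difference between the arms was -0.21 and was not called.

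Of the 32 other plasma membrane transporters listed, 10 were expressed enough to test in the FOXA1 arm, and 6 were lower and 2 higher, with a median log2 change of -0.41. All genes tested gave 26.3% lower and 26.1% higher in that arm, and 13.3% in each direction in the TRIM28 arm. In the TRIM28 arm 12 were tested, 3 lower and 1 higher, with a median of -0.01 (4 lower without knockdown replicate 3, and 1 lower without control replicate 2 or 3 or by limma on FPKM). The cationic carriers led: SLC7A2 averaged 35.0 ± 1.1 CPM in FOXA1 knockdown and 119 ± 10 CPM in its control (log2 change -1.77, SE 0.07, adjusted p = 7.40e-19), and SLC7A1 averaged 270 ± 18 CPM in FOXA1 knockdown and 462 ± 19 CPM in its control (log2 change -0.77, adjusted p = 2.07e-13; SD, n = 3 each). SLC7A2 was also lower in TRIM28 knockdown, with a log2 change of -0.77 (SE 0.10, adjusted p = 0.000867) and of -0.85 without knockdown replicate 3. SLC7A1 was called lower there too, by -0.355, and by -0.28 without knockdown replicate 3. Its call was lost without control replicate 2 or 3 and by limma on FPKM. Of the lysosomal and organelle carriers, 7 of 19 were higher and 4 lower in FOXA1 knockdown, with a median of 0.17, beside 26.1% higher and 26.3% lower of all genes, and in a fit of all 12 libraries 4 were higher and 3 lower. SLC25A44, the mitochondrial carrier of branched-chain amino acids, rose by 0.75 there (adjusted p = 7.29e-09), and SLC25A38, a mitochondrial glycine carrier, fell by 0.46 (adjusted p = 1.51e-06). In TRIM28 knockdown 3 of 19 were lower and 1 higher, with a median of -0.09 (7 lower without replicate 3, and 0 lower without knockdown replicate 2 or any 1 control library). With library size scaling, and also by limma on FPKM, 0 were lower and 2 higher. SLC25A44 rose by 0.44 in TRIM28 knockdown (adjusted p = 0.0121, 0.46 without knockdown replicate 3, lost without control replicate 1 or 2, at 0.0666 and 0.0744).

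Branched-chain amino acid breakdown, which uses the substrates of SLC43A1, had 13 of 22 genes lower and 2 higher in FOXA1 knockdown, with a median log2 change of -0.35. The shares over all genes were 26.3% lower and 26.1% higher in that arm, and 13.3% in each direction in the TRIM28 arm. In TRIM28 knockdown 6 of 22 were lower and 0 higher, with a median of -0.21 (14 lower without knockdown replicate 3, and 3 lower without control replicate 2). BCAT1, the cytosolic transaminase, averaged 27.5 ± 2.9 CPM in FOXA1 knockdown and 63.4 ± 3.9 CPM in its control (log2 change -1.20, SE 0.08, adjusted p = 2.62e-13; SD, n = 3 each). PPM1K, the phosphatase that activates the branched-chain ketoacid dehydrogenase, changed by -1.05 in FOXA1 knockdown (adjusted p = 1.56e-13), and MCCC2, a subunit of methylcrotonyl-CoA carboxylase, by -0.45 in TRIM28 knockdown (adjusted p = 0.00351, and -0.47 without replicate 3). Both were called lower in the other arm too, MCCC2 by -0.80 in FOXA1 knockdown and PPM1K by -0.51 in TRIM28 knockdown (-0.57 without replicate 3).

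Glutamine and glutathione metabolism had 11 of 24 genes lower and 7 higher in FOXA1 knockdown, with a median log2 change of -0.17. The shares over all genes tested were 26.3% lower and 26.1% higher. In TRIM28 knockdown 8 of 24 were lower and 3 higher, with a median of -0.22, beside 13.3% of all genes in each direction. The count lower was 10 without knockdown replicate 3, 4 without control replicate 1, 2 without control replicate 2 or 3, and 5 without knockdown replicate 2. ASS1, which makes argininosuccinate in arginine synthesis, averaged 279 ± 6 CPM in FOXA1 knockdown and 94.8 ± 6.5 CPM in its control (SD, n = 3 each). The log2 change was 1.56 (SE 0.05, adjusted p = 4.15e-20) in FOXA1 knockdown. TXNRD1, a thioredoxin reductase, rose by 0.93 there (adjusted p = 8.02e-17). In TRIM28 knockdown TXNRD1 was also called higher, by 0.55, and by 0.71 without knockdown replicate 3. That call was lost when any 1 of the other libraries was left out. GFPT1, which spends glutamine on hexosamine synthesis, rose in TRIM28 knockdown by 0.77 (SE 0.08, adjusted p = 0.000455, and 0.80 without replicate 3) and had a log2 change of 0.01 in FOXA1 knockdown (adjusted p = 0.831).

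Amino acid sensing and mTORC1 had 15 of 40 genes lower and 7 higher in FOXA1 knockdown, with a median log2 change of -0.10. Of all genes tested, 26.3% were lower and 26.1% higher in that arm, and 13.3% in each direction in the TRIM28 arm. In TRIM28 knockdown 6 of 40 were lower and 3 higher, with a median of -0.02 (10 lower and 12 higher without knockdown replicate 3, and 3 lower without control replicate 2). With library size scaling 6 were lower and 8 higher. CASTOR2, of the family of cytosolic arginine sensors, was higher in both arms, at 50.3 ± 2.3 CPM in FOXA1 knockdown and 25.0 ± 1.8 CPM in its control (log2 change 1.00, SE 0.08, adjusted p = 1.05e-11), and 48.7 ± 0.7 CPM in TRIM28 knockdown and 21.4 ± 0.8 CPM in its control (log2 change 1.18, SE 0.10, adjusted p = 0.000140; SD, n = 3 each; also 1.18 without knockdown replicate 3). MIOS, a GATOR2 subunit, changed by -0.96 in FOXA1 knockdown (adjusted p = 1.23e-12).

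**Figure D4:**
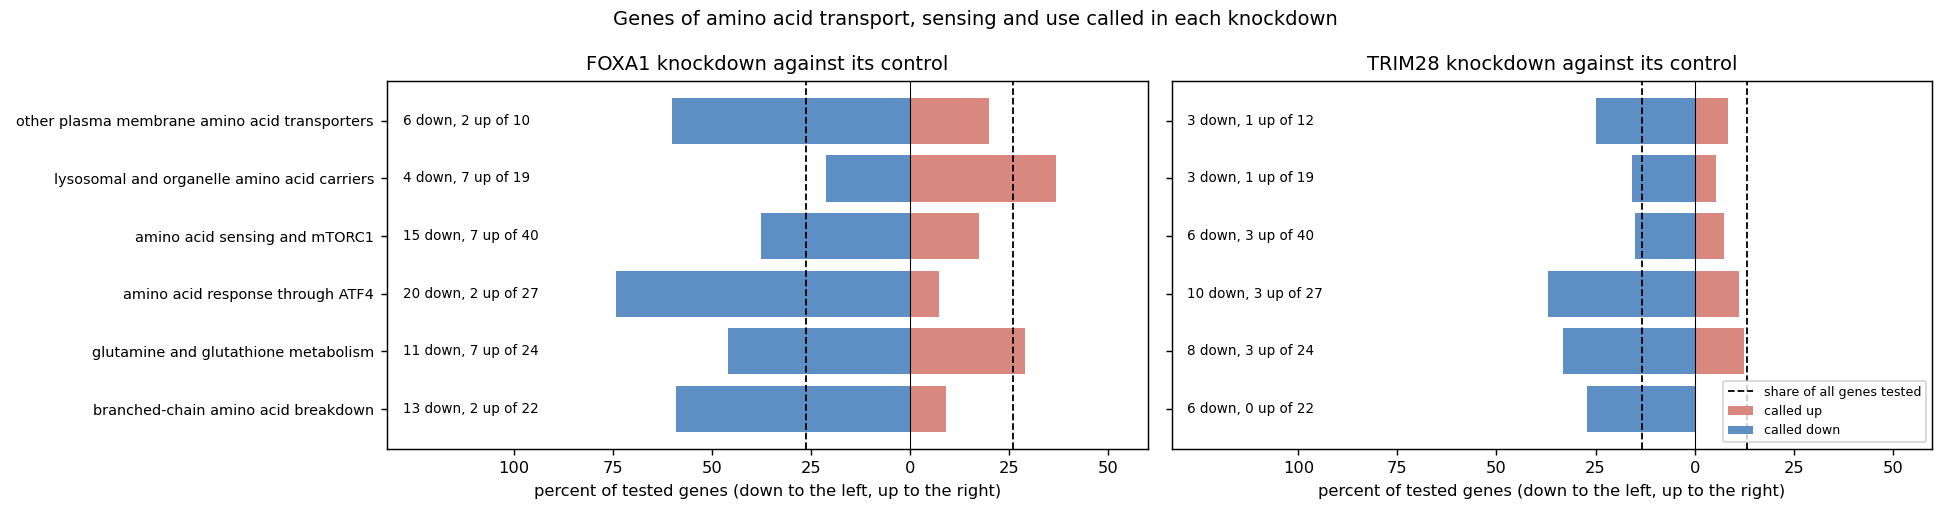
Share of the tested genes of each list that were called lower (blue, to the left) and higher (red, to the right) in FOXA1 knockdown (left panel) and TRIM28 knockdown (right panel), with counts at the left and the share of all genes tested as dashed lines. The ATF4 list shows 20 of 27 genes lower in FOXA1 knockdown and 10 of 27 in TRIM28 knockdown.

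Over the 12 libraries, the genes whose log2 CPM ran most like that of SLC43A1, among 10717 ranked by Pearson's r, were MACROD1 (0.992), KCNN2 (0.991) and CD320 (0.991), and among those that ran most against it were MCL1 (-0.987) and RBM12 (-0.986). The points fall into knockdown and control libraries, and the knockdown libraries share these changes: MACROD1 had a log2 change of -0.99 in both FOXA1 and TRIM28 knockdown, and MCL1 of 0.64 in FOXA1 knockdown and 0.65 in TRIM28 knockdown. Among the transporters r to SLC43A1 was 0.943 for SLC1A5, 0.912 for SLC3A2, 0.834 for SLC1A4, 0.782 for SLC38A1 and -0.875 for SLC43A2. It was between 0.209 and 0.513 for SLC38A2, SLC7A5, SLC7A11 and SLC7A8.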

How the data were processed

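Poly(A) RNA of LNCaP cells was sequenced in 12 libraries, 3 per group, and replicates are those of the labels, which name no separate cultures, so p-values measure the spread between these samples. Groups were taken from titles for the controls and from treatment labels for the knockdowns, since some genotype labels name other gene numbers. For each arm the authors deposited a table of raw read counts by gene symbol, and for all libraries one of FPKM. The submitters' processing notes name GRCh38 (hg38). Aligner, counter, strand setting and annotation: not given in the sources used here. Symbols on more than 1 of the 62710 lines (453) were kept once. The deposited FPKM equalled count over 1 length and the library total within 0.001 for 11847 of 11847 genes checked (at least 20 counts). Results by limma on FPKM therefore share the scaling by library size.

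Counts were tested with edgeR 4.0.16 in R 4.3.3 (TMM, filterByExpr with a minimum count of 10 and total of 15, robust two-sided quasi-likelihood F-tests) within each arm of 6 libraries, with Benjamini-Hochberg adjustment over all genes and a threshold of 0.05. Standard errors belong to the fitted log2 fold changes. The difference of the effects was a contrast over 12 libraries. All 10 members passed the filter in every fit. Alternatives were other scalings, no filter, DESeq2 1.42.0, limma 3.58.1 on log2(FPKM + 1) or log2(FPKM + 0.1), a replicate block, 1 fit of 12 libraries, and each library left out. The fits were tested on simulated counts. Members and lists were chosen with earlier results of these data known. Named genes were the members, the targeted genes, of each list the 2 with the smallest p in FOXA1 knockdown and the 1 in TRIM28 knockdown, and the 3 highest and 3 lowest correlations with SLC43A1; some items that these rules name are not reported here. ATF4 is given in both arms because its list bears its name. Promoter windows are RefSeq's. Protein sequences were not used here.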

Additional observations from a re-analysis of the deposited data

Results flagged for a closer look

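Both differences between the knockdown effects on transporters, taken as the FOXA1 effect minus the TRIM28 effect on the log2 scale and tested in 12 libraries with edgeR's quasi-likelihood test, are shown again here because the arms moved the genes differently: SLC7A8 by 0.73 (SE 0.13, adjusted p = 0.00113) and SLC7A11 by -0.99 (SE 0.09, adjusted p = 2.79e-06).

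Among the named genes of the lists, 9 also differed between the arms, beside 10.6% of all 15921 genes tested. These genes were named for a small p, 2 of each list in FOXA1 knockdown and 1 in TRIM28 knockdown. Genes named in this way are more likely to differ between the arms, so the count is no result about the lists. ASS1 differed by 1.41 (adjusted p = 0.00217), with a log2 change of 1.56 in FOXA1 knockdown and 0.16 in TRIM28 knockdown (adjusted p = 0.578, and 0.37 without replicate 3, adjusted p = 6.77e-05). BCAT1 differed by -1.01 (adjusted p = 0.000103), with -1.20 in FOXA1 knockdown and -0.19 in TRIM28 knockdown (adjusted p = 0.193, and -0.22 without replicate 3, adjusted p = 0.0334). SLC7A2 differed by -0.99 (adjusted p = 5.17e-05). GFPT1 differed by -0.74 (adjusted p = 3.58e-05), with the rise in TRIM28 knockdown. MIOS differed by -0.69 (adjusted p = 0.00487), with -0.26 in TRIM28 knockdown, which was called without replicate 3 (-0.42, adjusted p = 6.44e-05) and in a fit of all 12 libraries (adjusted p = 0.0462), and PPM1K by -0.52 (adjusted p = 0.00588). MTHFD2 differed by -0.54 (adjusted p = 0.0298), -0.35 without TRIM28 knockdown replicate 3 (adjusted p = 0.00137), and was called in 4 of 12 fits with a library left out (adjusted p up to 0.0900). SLC7A1 differed by -0.41 (adjusted p = 0.0177), called in 8 of 12 such fits (up to 0.0721). MCCC2 differed by -0.35 (adjusted p = 0.0335), called in 4 of 12 (up to 0.113), and was not called with no filter (0.108). Those of SLC7A8, SLC7A11, ASS1, BCAT1, SLC7A2, GFPT1, MIOS and PPM1K were called in all 12. No outlier test was run on single values within a group, since groups hold 3 libraries.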

How the results depend on the processing

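SLC43A1 was lower in both arms under every alternative run, and SLC7A8 and SLC7A11 differed between the arms under all of them. Leaving out 1 library gave 7 to 8 members and 7070 to 7637 genes called in FOXA1 knockdown, 3 to 7 members and 1817 (without control replicate 2) to 6966 genes (without knockdown replicate 3) in TRIM28 knockdown, 2 members and 1176 to 3528 genes for the difference, and 0 members and 0 to 2 genes between the controls, where no filter gave 8 genes. The fit then tests more genes, since the filter follows the smaller group. For the difference, limma on log2(FPKM + 1) called 778 genes higher and 908 lower.

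Over single transporters and settings, 557 values kept direction and call, 18 lost a call, 6 gained one and 29 turned direction. The tally pools all comparisons, the controls among them, and values not called at first cannot lose a call. Lost calls were those of SLC38A2 in FOXA1 knockdown and, for the most part, of SLC1A4, SLC3A2 and SLC43A2 in TRIM28 knockdown. Those that turned were all uncalled. SLC7A5 in FOXA1 knockdown was 0.001 with DESeq2 size factors and by DESeq2, 0.006 with library size scaling, 0.011 by limma with either pseudocount, and -0.09 to 0.041 with a library left out. SLC38A2 in TRIM28 knockdown was -0.057 to 0.121 with a library left out. The SLC43A2 difference was -0.054 with library size scaling, -0.027 and -0.015 by limma with pseudocounts 1 and 0.1, and -0.176 to 0.191 with a library left out. Between controls, library size scaling gave SLC3A2 -0.008 and SLC38A1 -0.006, limma gave -0.007 and -0.004, and leaving out a library gave SLC3A2 -0.023 to 0.058, SLC38A1 -0.033 to 0.056, SLC7A5 -0.068 to 0.058 and SLC7A11 -0.008 to 0.059. The causes were not tested.

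Replicate numbers gave no clear pairing of the libraries: deviations of same-numbered libraries correlated at -0.09, 0.04 and 0.22 in the FOXA1 arm and 0.13, -0.07 and 0.07 in the TRIM28 arm. Replicate 3 of FOXA1 knockdown and replicate 1 of TRIM28 knockdown correlated best with the control of their own number, and the others did not. A check on 3 libraries per group cannot exclude pairing. With a replicate block, 7997, 3846, 1597 and 0 genes were called in FOXA1 knockdown, TRIM28 knockdown, the difference and the controls, with 8, 6, 2 and 0 members, and the MCCC2 difference was not called (adjusted p = 0.0514). Depth limits the low genes SLC1A4, SLC7A8 and SLC43A2 most, with at least 250, 290 and 316 counts per library. TRIM28 in FOXA1 knockdown (-0.19) was not called in the fit of 12 libraries (adjusted p = 0.562).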
